A study of Mus musculus with 24 samples.

Results

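The genes described here are 39 imprinted genes of the mouse, chosen by name as members of 18 imprinted clusters or solitary imprinted loci, and read in a table of 54242 gene symbols. All 39 were in the table. Of these, 36 were tested, among 16447 genes whose mean log2(TPM + 1) over all 24 libraries reached 0.5. Kcnq1ot1, Rtl1 and Asb4 lay below that mean and are given by level only. TPM is the abundance of a gene's transcripts per length, scaled to the same sum in every library, so TPM can be compared between genes.

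RNA-seq was measured in CGR8 cells, a mouse embryonic stem cell (ESC) line, in 8 groups of 3 libraries. Cells were transfected with a control siRNA (si-CTL) or with an siRNA to Rsl24d1 (si-Rsl24d1), which encodes a nuclear factor that takes part in the assembly of the large ribosomal subunit. They were collected in serum with LIF (day 0) or after 4 days of 10 nM retinoic acid (RA), which induces differentiation (day 4). Each of these 4 states was measured without rescue, and with rescue by doxycycline, which switches on an ectopic Rsl24d1 that the siRNA does not target.

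The 8 groups therefore were day 0 si-CTL, day 0 si-Rsl24d1, day 0 si-CTL with rescue, day 0 si-Rsl24d1 with rescue, and the same 4 at day 4 in RA. The study's methods describe a CGR8-RESCUE line selected with puromycin for an integrated transposon, whereas the labels give an empty vector to the cells without doxycycline. Doxycycline and ectopic Rsl24d1 came together in every rescued group, so their effects cannot be told apart. The labels name 1 cell line, and nothing in them says that the replicates of a group were separate cultures. A figure legend of the paper calls the replicates of these groups biological, without describing how they were separated. The p-values measure only the spread between these libraries.

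Imprinted genes are expressed mainly from the copy inherited from 1 parent. For most, this rests on DNA methylation laid down in the egg or sperm at an imprinting control region and kept through embryonic life. In early embryos and ESCs that methylation is held in place by the KRAB zinc finger proteins ZFP57 and ZFP445 with TRIM28 and the DNA methyltransferase DNMT1. Many imprinted genes set the growth of the fetus and placenta. The list holds 23 genes usually expressed from the paternal copy, 14 from the maternal copy and 2 loci with transcripts of both kinds. Parental copies were not measured here, so every value is the sum over both copies.

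Promoter sequence was read from RefSeq on GRCm38.p6, which gave 50 windows from 250 bases before to 50 bases after a transcription start for 32 of the 39 genes. H19, Sgce, Peg10, Dcn, Impact, Rtl1 and Cdkn1c had no window. The hexamer TGCCGC, the sequence to which ZFP57 binds when its CpG is methylated, was searched on both strands, where it reads GCGGCA on the other. It lay in 11 of the 50 windows (22%) and in 11.6% of 32851 windows of all genes. Overlapping windows of Mest were each counted. The 10 genes with a hexamer were Grb10, Igf2, Mcts2, Meg3, Mest, Nnat, Plagl1, Snrpn, Zdbf2 and Zim1. The median number of CpG was 12.5 in the windows of these genes' list and 7 in all windows. The windows of Peg3 and Usp29, which are transcribed in opposite directions, shared 263 bases, and those of Snhg14 and Snrpn shared all 300 bases. The 3 windows printed belong to genes that were higher in si-Rsl24d1 cells at day 4, and all 3 hold the hexamer. Igf2, also called higher then, holds it too, while the windows of Peg3, Sfmbt2 and Slc38a4, likewise called higher, do not. A link between the hexamer and the day 4 difference was not tested. Each line holds the 250 bases before the start, 5′ to 3′ on the plus strand, with the hexamer of either strand in capitals. A match describes these letters and does not show binding.
Plagl1, chr10:13090582-13090831: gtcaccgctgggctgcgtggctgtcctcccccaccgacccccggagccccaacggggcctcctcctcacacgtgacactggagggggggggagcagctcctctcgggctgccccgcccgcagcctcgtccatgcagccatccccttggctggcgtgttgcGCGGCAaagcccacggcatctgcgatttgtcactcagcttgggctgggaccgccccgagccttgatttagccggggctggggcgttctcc
Zdbf2, chr1:63200108-63200357: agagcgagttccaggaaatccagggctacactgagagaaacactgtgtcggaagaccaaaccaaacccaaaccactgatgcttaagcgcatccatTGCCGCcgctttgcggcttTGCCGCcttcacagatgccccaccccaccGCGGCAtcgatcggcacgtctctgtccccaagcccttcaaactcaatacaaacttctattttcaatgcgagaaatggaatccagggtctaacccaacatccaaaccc
Mest, chr6:30737800-30738049: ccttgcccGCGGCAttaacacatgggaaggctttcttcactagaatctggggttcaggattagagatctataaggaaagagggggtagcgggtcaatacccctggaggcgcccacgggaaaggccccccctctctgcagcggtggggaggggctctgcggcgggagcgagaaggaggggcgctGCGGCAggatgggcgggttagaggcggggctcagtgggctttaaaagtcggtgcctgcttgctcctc
The counts that follow are for the 250 bases before the start only, whereas the medians and shares above are for whole windows. The Plagl1 window held 1 hexamer, 90 bases before the start, and 19 CpG. The Zdbf2 window held 3, and lies at a RefSeq start upstream of the gencode gene body, while a second Zdbf2 window with 26 CpG held none. The Mest window held 2 hexamers, while another Mest window with 7 CpG held none.

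The siRNA check showed a limit of the day 4 data. At day 0 the 3 si-CTL libraries had 7.22, 7.14 and 7.10 log2(TPM + 1) of Rsl24d1 and the 3 si-Rsl24d1 libraries 5.23, 5.28 and 5.07. This is a fall of 1.95 on the log2 scale (limma, adjusted p = 3.24e-14). At day 4 the values were 6.60, 6.67 and 6.61 in si-CTL and 6.50, 6.61 and 6.65 in si-Rsl24d1, with overlapping groups and a difference of -0.04 (SE 0.07, limma adjusted p = 0.660). The mRNA difference seen at day 0 was thus not detected at day 4, and the day 4 groups are compared as cells that received the 2 siRNAs before RA. With rescue at day 0 the si-Rsl24d1 libraries had 6.70, 6.60 and 6.94 and the si-CTL libraries 7.31, 7.24 and 7.21, the latter 0.10 above unrescued si-CTL and not called. With rescue at day 4 they had 7.07, 7.05 and 7.00 in si-Rsl24d1 and 6.99, 6.84 and 6.85 in si-CTL. Whether reads of the ectopic copy count towards these values was not tested.

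Libraries differed in how values moved with transcript length, which bears on these genes because their longest annotated transcripts had a median of 4524 bases against 2950 over the 16123 tested genes with a length. Of the 36 genes, 21 lay in the third of all tested genes with the longest transcripts and 8 in the third with the shortest. The median level of the longest sixth of genes relative to the shortest sixth, on the log2 scale, was -0.26, -0.27 and -0.21 in the day 4 si-CTL libraries without rescue. It was -0.13, 0.27 and 0.23 in the day 4 si-Rsl24d1 libraries without rescue, so the first of these stood apart from the other 2. It lay between 0.01 and 0.14 in the 6 rescued libraries of day 4. Values with this trend removed are given for the counts and for the genes called at day 4. The table keeps no read counts, so depth is unknown.

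In undifferentiated si-CTL cells the imprinted genes spanned a wide range of levels. The most abundant were Peg10, a retrotransposon-derived gene needed for the placenta, at 238 ± 50.6 TPM (SD, n = 3), and Snrpn, which encodes a small nuclear ribonucleoprotein, at 171.5 ± 7.56 TPM. Gnas, the stimulatory G protein alpha subunit, had 167 ± 4.21 TPM, and Impact, an inhibitor of the kinase GCN2, had 164.5 ± 10.9 TPM. Snrpn, Gnas and Impact differed by less than their spread. In these cells 6 genes had means under 1 TPM, among them Rtl1 at 0.0594 ± 0.0191, Dcn at 0.14 ± 0.0546, Kcnq1ot1 at 0.182 ± 0.0575 and Asb4 at 0.254 ± 0.0846. At day 4 the order had changed, and H19, a long noncoding RNA, led with 467.5 ± 43.1 TPM, followed by its neighbour Igf2, the fetal growth factor, with 355 ± 16.1 TPM and Gnas with 244 ± 8.46 TPM.

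The summed level of the 39 genes separated the days and, at day 4, the siRNAs. It lay between 1349 and 1784 TPM in the 12 day 0 libraries. At day 4 it was 2066 to 2273 TPM in si-CTL and 3406 to 4104 TPM in si-Rsl24d1 without rescue, and 2447 to 2731 TPM in si-CTL and 3054 to 3201 TPM in si-Rsl24d1 with rescue. H19 and Igf2 were the most abundant of the list in all 4 day 4 groups and weigh most in that sum. In cells measured in bulk, more cells that express a gene and more RNA per cell cannot be told apart.

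RA changed the imprinted genes in both directions. A gene is called changed where limma gave an adjusted p below 0.01 and the change exceeded 1.8-fold, which is 0.848 on the log2 scale. In si-CTL cells without rescue 9 of 36 rose, against 6.77% of all tested genes, and 6 fell, against 8.24%. In si-Rsl24d1 cells 12 rose and 2 fell, against 7.93% and 6.22%. In rescued si-CTL cells 13 rose and 2 fell, against 10.7% and 4.82%. In rescued si-Rsl24d1 cells 11 rose and 1 fell, against 9.34% and 5.57%. These 4 comparisons share no library. The genes that rose in all 4 were H19, Igf2, Dlk1, Peg3, Usp29, Sgce, Airn and Dcn, 8 in number, which is 22.2% of the 36 against 4.13% of all tested genes. None fell in all 4, whereas 2.07% of all tested genes did, and 13 were called in none. No gene rose in 1 condition and fell in another. With median of ratios scaling the split of rises and falls was 12 and 6 in rescued si-CTL cells, against 8.29% and 6.52% of all tested genes, and 11 and 3 in rescued si-Rsl24d1 cells, against 8.17% and 6.82%. With the length trend removed it was 10 and 4 in si-CTL cells, against 8.24% and 5.72%, 11 and 5 in rescued si-CTL cells, against 7.9% and 6.26%, and 10 and 3 in rescued si-Rsl24d1 cells, against 8.08% and 6.54%.

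**Figure D1:**
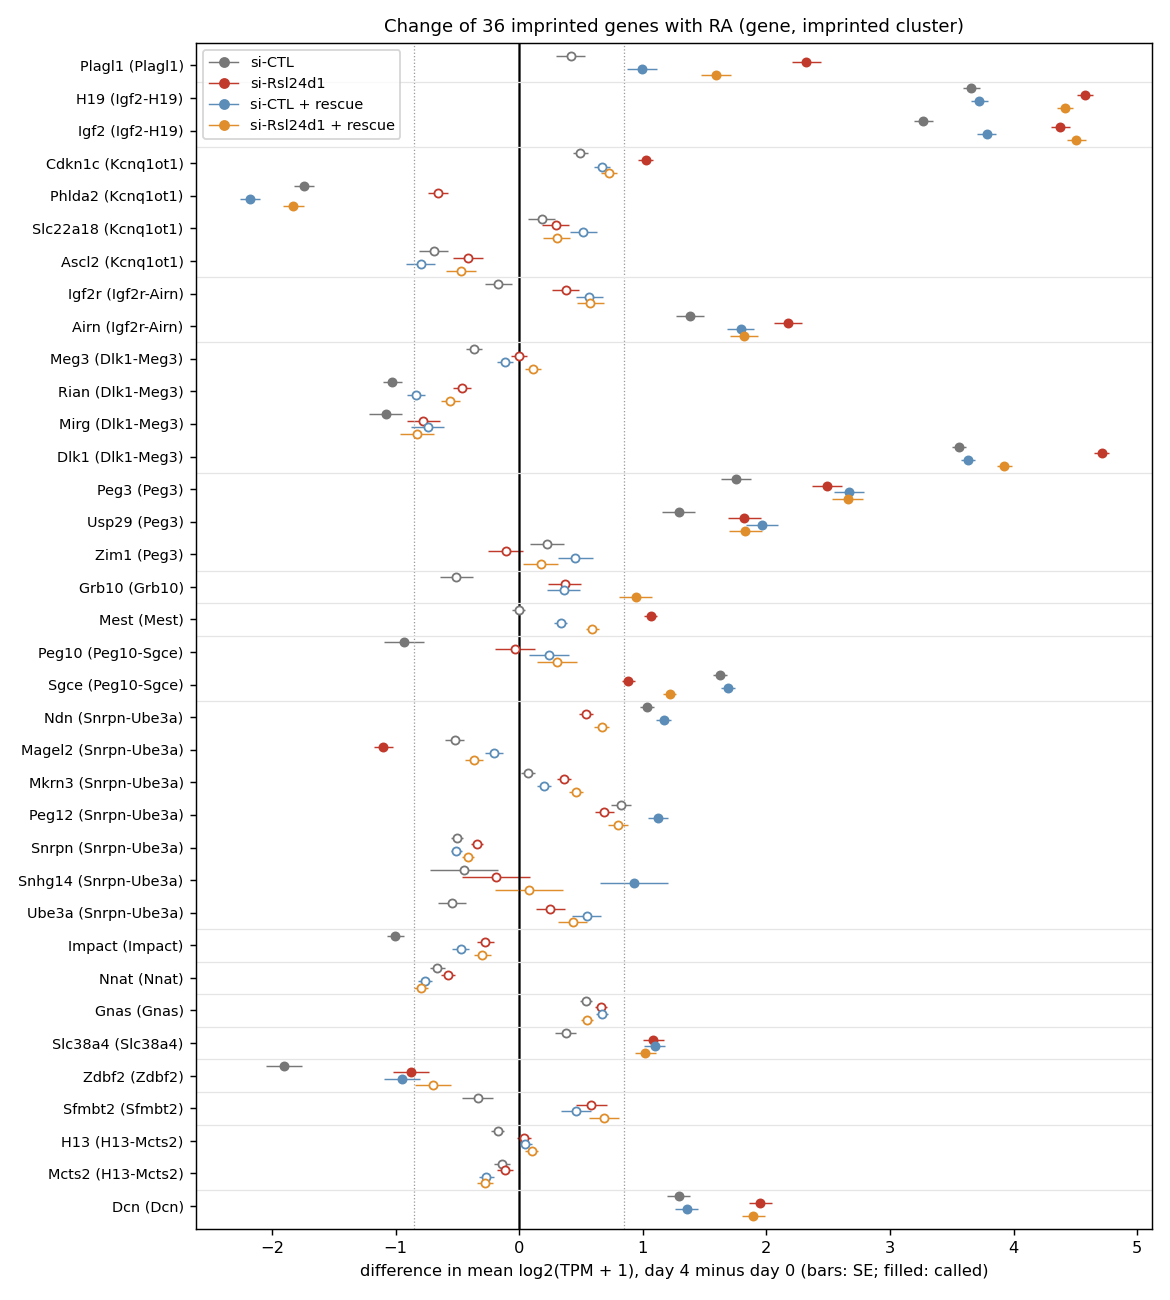
Change of the 36 tested imprinted genes from day 0 to day 4 of RA, as the difference in mean log2(TPM + 1) on the horizontal axis with bars of 1 standard error, for si-CTL, si-Rsl24d1 and both with rescue (3 libraries per group; filled points are called, dotted lines mark 1.8-fold, and gray lines separate clusters). H19, Igf2 and Dlk1 lie beyond 3 in all 4 conditions, and Phlda2 and Zdbf2 lie below 0 in all 4.

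In the Igf2-H19 cluster on chromosome 7 both genes rose. H19 (chr7:142575529-142578143, GRCm38, gencode vM21, minus strand) had 5.23, 5.15 and 5.24 in the si-CTL libraries of day 0 and 8.92, 8.71 and 8.97 in those of day 4. The rise was 3.66 on the log2 scale (SE 0.07). Igf2 (chr7:142650766-142666816) had 5.31, 5.10 and 5.21 and then 8.49, 8.40 and 8.53, a rise of 3.27 (SE 0.08). No library of day 4 overlapped those of day 0 for either gene. In si-Rsl24d1 cells the rises were 4.58 for H19 and 4.38 for Igf2.

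In the Dlk1-Meg3 cluster on chromosome 12 the protein-coding gene and the noncoding RNAs moved apart. Dlk1 (chr12:109452823-109463336), a transmembrane protein related to the Notch ligands, had 2.47, 2.39 and 2.56 at day 0 and 6.06, 5.91 and 6.13 at day 4 in si-CTL cells, a rise of 3.56 (SE 0.06). Rian and Mirg, the hosts of snoRNAs and miRNAs made from the other parental copy, fell by 1.03 and 1.08. Rian had 5.69, 5.77 and 5.72 at day 0 and 4.62, 4.66 and 4.82 at day 4. Meg3, the first noncoding RNA of that series, differed by -0.36 and was not called, and Rtl1 did not exceed 0.21 log2(TPM + 1) in any library. In the other 3 conditions Rian differed by -0.46 to -0.83 and Mirg by -0.74 to -0.83, all under the fold threshold.

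Peg3, Sgce and Airn came next among the genes that rose in si-CTL cells. Peg3 (chr7:6703892-6730431), which encodes a zinc finger protein, had 4.90, 4.58 and 4.53 at day 0 and 6.32, 6.34 and 6.60 at day 4, a rise of 1.75. Its divergent neighbour Usp29, a deubiquitinase gene, rose by 1.29, while Zim1 of the same cluster differed by 0.22. Sgce, which encodes epsilon-sarcoglycan, had 3.18, 3.14 and 3.29 and then 4.84, 4.76 and 4.89, a rise of 1.63. Airn, the noncoding RNA that runs antisense to Igf2r, had 1.34, 1.31 and 1.35 and then 2.67, 2.65 and 2.84, a rise of 1.38. Igf2r, whose product clears IGF2, differed by -0.17. The 2 genes overlap on opposite strands, and 1 source gives a stranded kit and the other a kit with no word on strand, so reads of the overlap may not be separable. Dcn (decorin) rose by 1.29 from 0.11, 0.22 and 0.23 to 1.35, 1.57 and 1.52, and Ndn (necdin) rose by 1.03.

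Phlda2 and Zdbf2 fell most. Phlda2 (chr7:143501545-143503150), which limits placental growth, had 6.92, 7.01 and 7.02 at day 0 and 5.29, 5.16 and 5.28 at day 4 in si-CTL cells, a fall of 1.74 on the log2 scale. No other tested gene of the Kcnq1ot1 cluster was called in si-CTL cells. Ascl2, a basic helix-loop-helix factor, was also lower at day 4, with means of 1.95 and 1.26 and no overlap, a difference of -0.69 past the adjusted p and under the fold threshold. Cdkn1c, the cyclin-dependent kinase inhibitor p57, differed by 0.49 and Slc22a18 by 0.18, and Kcnq1ot1 itself stayed between 0.18 and 0.35 in these 6 libraries. Zdbf2 (chr1:63273265-63314576) had 5.33, 4.91 and 4.82 and then 2.97, 3.18 and 3.20, a fall of 1.91. Impact fell by 1.00. Peg10 fell by 0.94 in si-CTL cells without rescue, but differed by -0.03 in si-Rsl24d1 cells and by 0.24 and 0.30 in the rescued pairs.

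Some genes passed the fold threshold with RA in only part of the 4 conditions. Mest rose by 1.06 in si-Rsl24d1 cells, against -0.01 in si-CTL and 0.34 and 0.59 in the rescued pairs. Slc38a4 rose by 1.08, 1.10 and 1.02 in the 3 conditions other than unrescued si-CTL, where it differed by 0.38. Plagl1 likewise rose by 2.32 in si-Rsl24d1 cells, by 0.99 in rescued si-CTL and by 1.59 in rescued si-Rsl24d1, and differed by 0.41 in si-CTL. Cdkn1c rose in si-Rsl24d1 cells alone, by 1.02, and Grb10 in rescued si-Rsl24d1 cells alone, by 0.94. Magel2 fell in si-Rsl24d1 cells alone, by 1.10, from the higher level it had there at day 0. The interaction of siRNA and day in unrescued cells was called for Plagl1 and Mest and not for Slc38a4, Cdkn1c or Magel2. The differences that involve rescued cells were not tested. Slc22a18, Ascl2, Igf2r, Meg3, Zim1, Mkrn3, Snrpn, Ube3a, Nnat, Gnas, Sfmbt2, H13 and Mcts2 were called in none of the 4. Snrpn, for example, had 7.38, 7.42 and 7.50 at day 0 and 6.92, 6.95 and 6.90 at day 4 in si-CTL, a difference of -0.50 without overlap but under the fold threshold.

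At day 0, where the siRNA lowered Rsl24d1 mRNA, 1 of 36 genes was called higher in si-Rsl24d1 cells and none lower, against 3.4% and 0.772% of all tested genes. The gene was Sgce, with 3.18, 3.14 and 3.29 in si-CTL and 4.21, 4.06 and 4.06 in si-Rsl24d1, a difference of 0.91 (SE 0.05, limma adjusted p = 6.27e-11). At any fold 10 of 36 passed the adjusted p, 6 higher and 4 lower, against 30.4% of all tested genes, and 15 had an unadjusted p below 0.05, against 47.6%. The median difference of the 36 was 0.05, beside -0.01 over all tested genes. The share that passed at day 0 was thus near the background.

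Of those 10, 3 lay in the Snrpn-Ube3a cluster on chromosome 7, which has 7 tested genes. Magel2, a MAGE family gene, had 0.95, 1.00 and 0.97 in si-CTL and 1.72, 1.76 and 1.88 in si-Rsl24d1, a difference of 0.81 (SE 0.07). Ndn of the same family had 2.77, 2.87 and 2.68 and then 3.40, 3.46 and 3.36, a difference of 0.64. Peg12, related to the Frat proteins that bind GSK3, differed by 0.33, while Mkrn3, Snrpn, Snhg14 and Ube3a did not pass the adjusted p. Peg3 differed by 0.61 and Zim1 by 0.54. The 4 lower genes were Phlda2 at -0.67, Slc22a18 at -0.48, Dlk1 at -0.39 and Mest at -0.22. With the day 0 si-CTL libraries with rescue as the control instead, an alternative chosen after seeing the data, 4 genes were called higher, namely Sgce, Peg10, Magel2 and Peg3, against 4.55% of all tested genes. Without si-Rsl24d1 replicate 1, the count of called genes at day 0 was 2.

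At day 4 the difference between the siRNAs was larger. Without rescue 9 of 36 genes were called higher in si-Rsl24d1 cells and none lower, against 1.45% and 0.182% of all tested genes. They were Plagl1, Peg10, Peg3, Zdbf2, Sfmbt2, Igf2, H19, Slc38a4 and Mest, which lie in 8 clusters. At any fold 25 of 36 passed the adjusted p as higher, against 24.9% of all tested genes, and Slc22a18 alone of the 36 passed as lower, at -0.37. An unadjusted p below 0.05 was found for 34, against 53.1% of all tested genes. Of the 36 genes 35 had a positive difference, and their median was 0.50, beside 0.13 over all tested genes. Of the 9, 8 are usually expressed from the paternal copy, of which 21 were tested, and H19 from the maternal copy, of which 13 were tested. The median difference was 0.76 for the paternal and 0.48 for the maternal class. Between rescued and unrescued si-CTL cells at day 4 these class medians were 0.30 and 0.08. The list was put together with earlier results of these libraries known, so these counts are not independent evidence of a direction.

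The count depended on the scaling, on transcript length and on the control. Median of ratios scaling moved the median of all genes from 0.13 to near 0 and left 5 genes called, Plagl1, Peg10, Peg3, Zdbf2 and Sfmbt2, against 0.717% of all tested genes, with a median of 0.34 over the 36. With the length trend of each library removed, chosen after seeing the data, 3 were called, Plagl1, Peg10 and Peg3, against 0.719% of all tested genes, and the median of the 36 was 0.35. With the rescued si-CTL libraries of day 4 as the control, also chosen after seeing the data, only Plagl1 was called of the 36, against 0.833% of all tested genes, and the median was 0.31. The difference was positive for 32, 30 and 34 of 36 genes in these 3 analyses, and for all 9 called genes in each. The count was 6 without si-CTL replicate 2 and 12 without si-Rsl24d1 replicate 1.

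**Figure D2:**
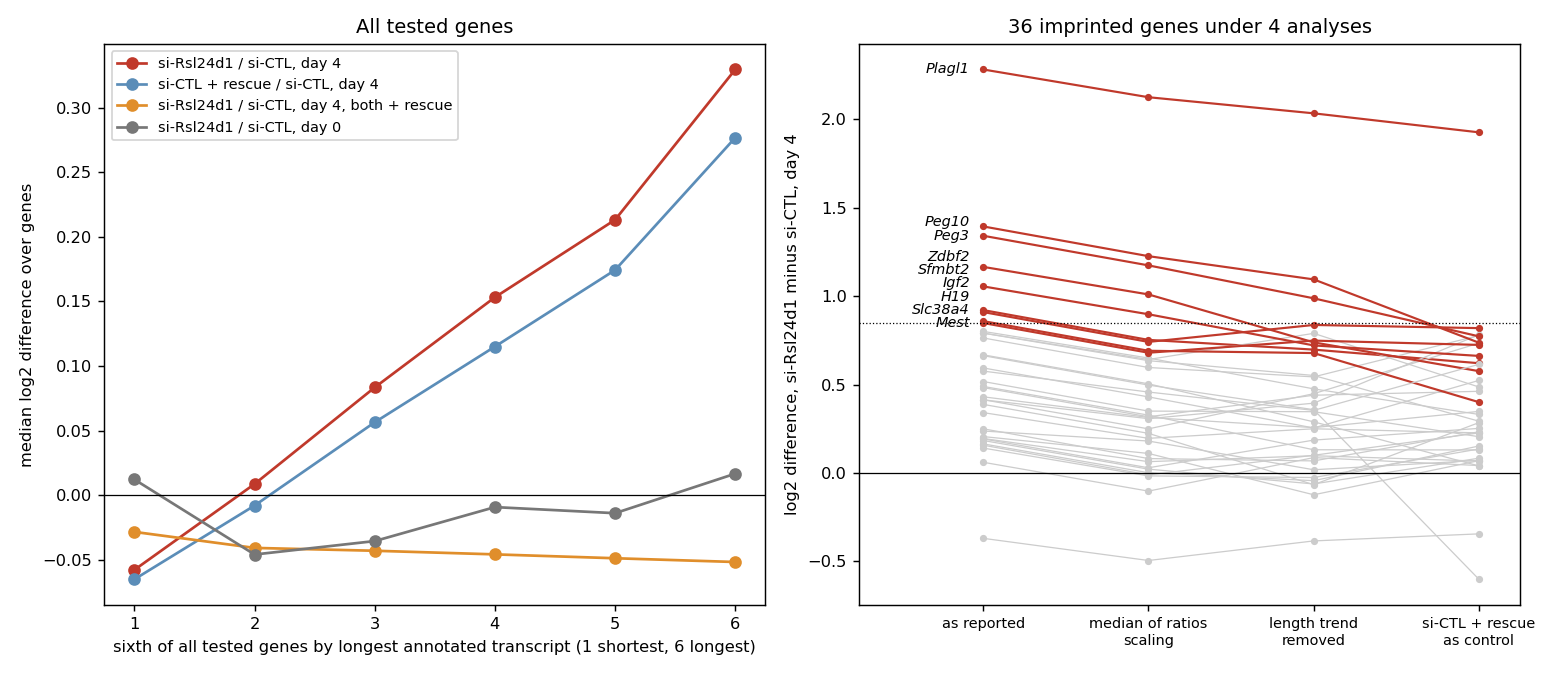
Left, the median log2 difference of all tested genes in 6 equal groups by the length of the longest annotated transcript, for 4 comparisons. Right, the day 4 log2 difference between si-Rsl24d1 and si-CTL of each of the 36 genes as reported and under 3 other analyses (red, the 9 called genes; gray, the others; dotted line, 1.8-fold). The median rises with length from -0.06 to 0.33 for si-Rsl24d1 against si-CTL at day 4 and from -0.07 to 0.28 for si-CTL with against without rescue, and Plagl1 stays near 2 in all 4 analyses.

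Plagl1 (chr10:13060504-13131694, plus strand), a zinc finger transcription factor of fetal growth, had the largest difference of the list. At day 4 its values were 2.98, 2.83 and 3.19 in si-CTL, 5.13, 5.40 and 5.31 in si-Rsl24d1, 3.38, 3.19 and 3.49 in rescued si-CTL and 4.05, 4.32 and 4.26 in rescued si-Rsl24d1. All si-Rsl24d1 libraries lay above all si-CTL libraries with either rescue state. The difference was 2.28 without rescue (SE 0.12, limma adjusted p = 1.25e-10) and 0.85 with rescue (SE 0.12), which made Plagl1 the only gene of the list called with rescue. Rescued si-Rsl24d1 cells lay 1.07 below unrescued ones on the log2 scale, and this too was called for Plagl1 alone. At day 0 the values were 2.79, 2.47 and 2.49 in si-CTL and 3.15, 2.80 and 2.92 in si-Rsl24d1, a difference of 0.37 that was not called. Plagl1 kept its day 4 call under every alternative run for that comparison, with 2.13 under median of ratios scaling, 2.03 with the length trend removed and 1.93 against rescued si-CTL.

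**Figure D3:**
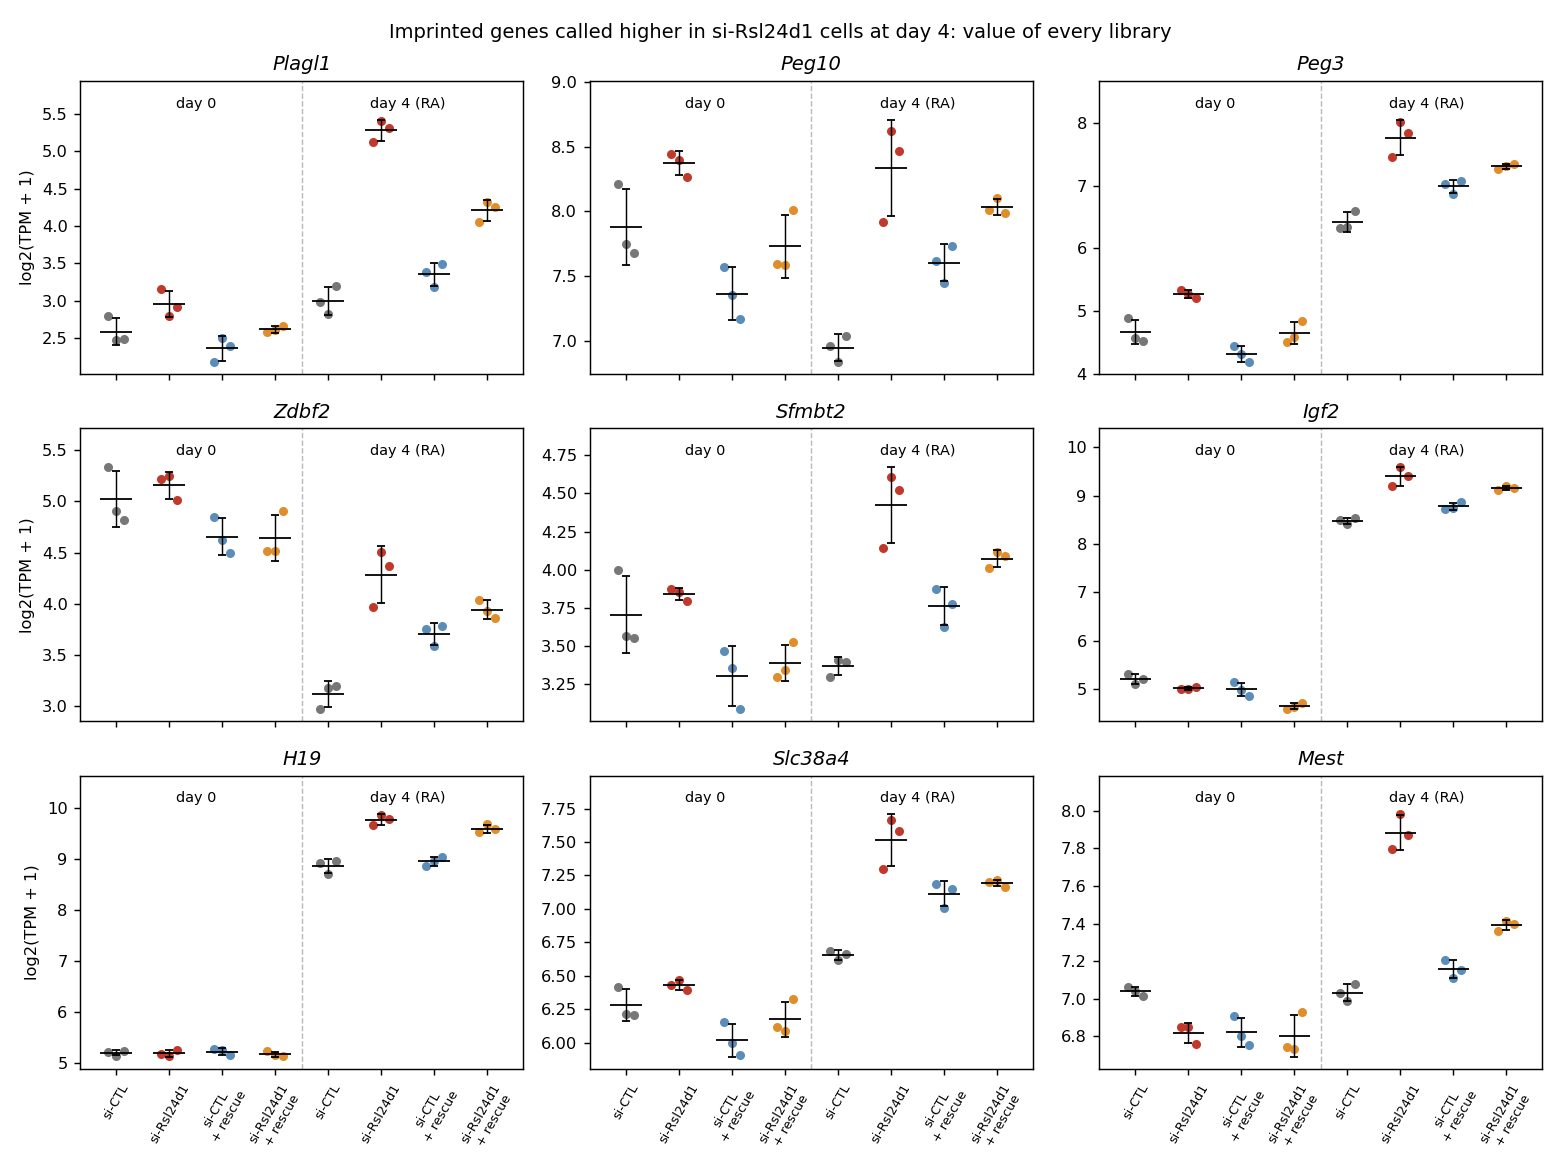
Value of every library, in log2(TPM + 1), for the 9 imprinted genes called higher in si-Rsl24d1 cells at day 4, in the 8 groups (horizontal lines and bars are the mean and SD of 3 libraries; vertical axes do not start at 0). Plagl1 in si-Rsl24d1 cells at day 4 lies above 5 in all 3 libraries, while for Slc38a4 the rescued si-CTL libraries lie between the 2 unrescued groups.

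Peg10 (chr6:4747306-4760517) and Peg3 followed. Peg10 had 6.96, 6.83 and 7.04 in si-CTL and 7.92, 8.63 and 8.47 in si-Rsl24d1 at day 4, a difference of 1.39 (SE 0.16, limma adjusted p = 2.65e-06). Its si-Rsl24d1 level at day 4 lay near that of day 0, where the 3 libraries had 8.45, 8.40 and 8.27. Sgce, which starts next to Peg10 on the other strand, differed by 0.17 at day 4 and did not share the change. Peg3 had 6.32, 6.34 and 6.60 and then 7.45, 8.01 and 7.83, a difference of 1.34 (SE 0.12). Peg10 differed by 1.10 and Peg3 by 0.99 once the length trend was removed. Usp29 differed by 0.80, just under the fold threshold.

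Zdbf2, Sfmbt2 and Slc38a4 are solitary imprinted genes. Zdbf2 had 2.97, 3.18 and 3.20 in si-CTL and 3.97, 4.51 and 4.37 in si-Rsl24d1, a difference of 1.17 (SE 0.14). Sfmbt2 (chr2:10370510-10595253), which encodes a Polycomb-type MBT protein of the extraembryonic lineages, had 3.30, 3.41 and 3.40 and then 4.14, 4.61 and 4.52, a difference of 1.06. Slc38a4 (chr15:96994820-97055956), an amino acid transporter gene, had 6.69, 6.62 and 6.66 and then 7.30, 7.66 and 7.58, a difference of 0.86. The groups did not overlap for any of these 3 genes. In these 3 and in the other 6 genes called at day 4, si-Rsl24d1 replicate 1 was the lowest library of its group, and it also stood apart in the length trend. With the length trend removed the differences of Zdbf2, Sfmbt2 and Slc38a4 were 0.74, 0.72 and 0.68, under the fold threshold.

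In the Igf2-H19 cluster both neighbours were higher. Igf2 had 8.49, 8.40 and 8.53 in si-CTL and 9.20, 9.58 and 9.40 in si-Rsl24d1 at day 4, a difference of 0.92 (SE 0.08). H19 had 8.92, 8.71 and 8.97 and then 9.67, 9.87 and 9.79, a difference of 0.91 (SE 0.07). The groups did not overlap. Removing the length trend gave 0.70 for Igf2 and 0.84 for H19, under the fold threshold. With rescue on both sides H19 differed by 0.64 and Igf2 by 0.38, both past the adjusted p and under the fold threshold. At day 0 H19 differed by -0.01 and Igf2 by -0.19.

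Mest (chr6:30723547-30748465), an alpha/beta hydrolase fold gene of mesodermal tissue, had 7.03, 6.99 and 7.08 in si-CTL and 7.79, 7.98 and 7.87 in si-Rsl24d1 at day 4. Its difference of 0.85 (SE 0.05) lay at the threshold, and with the length trend removed it was 0.75. Just outside it lay Usp29 at 0.80, Airn and Grb10 at 0.79 and Dlk1 at 0.76. Dlk1 had 6.06, 5.91 and 6.13 and then 6.82, 6.85 and 6.72, without overlap. In the Dlk1-Meg3 cluster Rian differed by 0.59, Mirg by 0.43 and Meg3 by 0.39. With the length trend removed Rian and Mirg differed by 0.26 and Meg3 by -0.07, none past the adjusted p, and Dlk1 by 0.54.

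The other genes differed less at day 4. In the Kcnq1ot1 cluster Cdkn1c differed by 0.48, Phlda2 and Ascl2 by 0.41 and Slc22a18 by -0.37. In the Snrpn-Ube3a cluster the differences ran from 0.14 for Ndn to 0.67 for Ube3a, a ubiquitin ligase gene. Against rescued si-CTL Ube3a differed by 0.04, and Snhg14 alone of that cluster was negative, at -0.60. With the length trend removed Ube3a differed by 0.29, and Ndn alone was negative, at -0.03. Igf2r differed by 0.49, Impact by 0.52, Gnas by 0.25, Nnat by 0.19, H13 by 0.18 and Mcts2, a retrogene within an intron of H13 on the same strand, by 0.06. The untested Rtl1 reached 0.13, 0.18 and 0.21 in si-Rsl24d1 against 0.11, 0.07 and 0.13 in si-CTL, and Asb4 0.72, 0.78 and 0.65 against 0.48, 0.41 and 0.59.

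**Figure D4:**
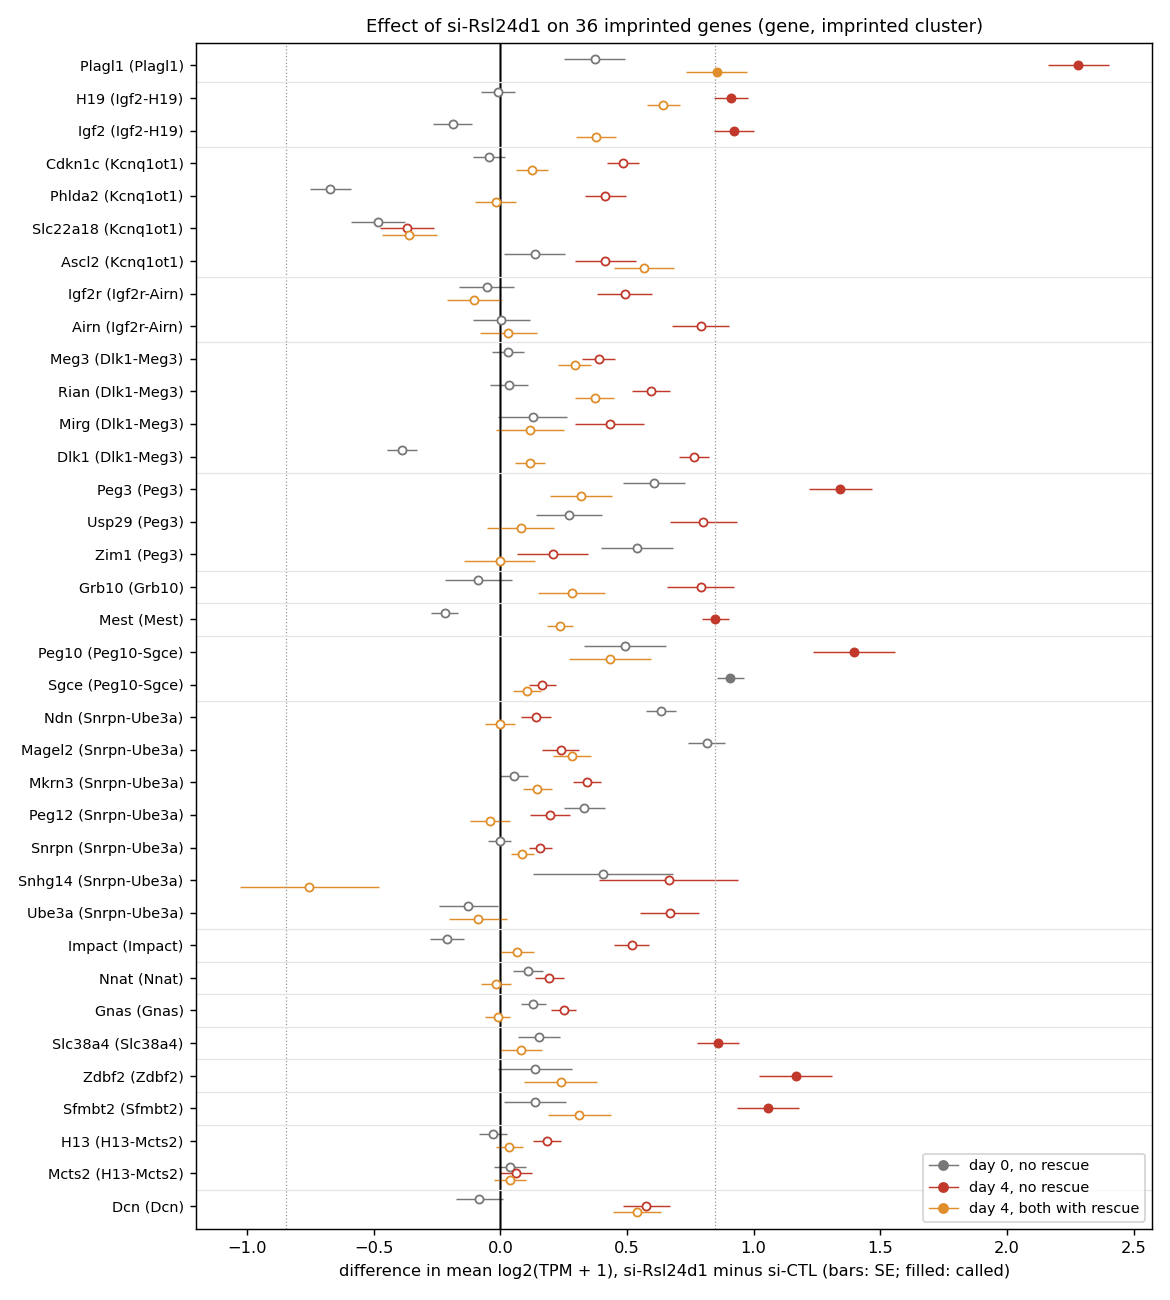
Difference between si-Rsl24d1 and si-CTL for the 36 tested imprinted genes, in log2(TPM + 1) with bars of 1 standard error, at day 0 and day 4 without rescue and at day 4 with rescue on both sides (filled points are called; dotted lines mark 1.8-fold; gray lines separate clusters). The day 4 points without rescue lie right of 0 for 35 of 36 genes, and Plagl1 alone is called with rescue.

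With rescue on both sides, few differences remained past the thresholds. At day 0 none of 36 genes was called by limma, against 1.36% of all tested genes, and 12 had an unadjusted p below 0.05, against 32.8%. At day 4 Plagl1 was called, 1 of 36 against 0.73%, and it was not called without si-Rsl24d1 replicate 2 or without si-Rsl24d1 replicate 3 of the rescued group. The medians of the 36 were 0.06 at day 0 and 0.11 at day 4, beside 0.00 and -0.04 over all tested genes. Rescued against unrescued si-Rsl24d1 cells gave no call at day 0, against 0.28%, with 20 of the 36 at an unadjusted p below 0.05 in limma, against 42.9% of all tested genes. At day 4 the same comparison gave the 1 call of Plagl1, against 0.0851%. For Sgce at day 0 the rescued si-Rsl24d1 libraries had 3.79, 3.63 and 3.75, between the si-CTL and the unrescued si-Rsl24d1 libraries. For Magel2 they had 1.23, 1.22 and 1.34, also between the 2.

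The other 8 genes called at day 4 without rescue were closer together once both sides were rescued. For Peg3 the rescued libraries had 7.03, 6.87 and 7.07 in si-CTL and 7.27, 7.31 and 7.34 in si-Rsl24d1. For Peg10 they had 7.62, 7.45 and 7.73 and then 8.01, 8.10 and 7.99. In both genes the rescued si-CTL libraries lay above the unrescued si-CTL libraries. For Zdbf2 the rescued libraries had 3.75, 3.59 and 3.78 in si-CTL and 4.04, 3.93 and 3.86 in si-Rsl24d1, and for Sfmbt2 3.88, 3.63 and 3.78 and then 4.01, 4.12 and 4.09. For Slc38a4 they had 7.19, 7.01 and 7.15 and then 7.20, 7.21 and 7.17, a difference of 0.08. H19 differed by 0.09 and Mest by 0.12 between rescued and unrescued si-CTL cells, neither past the adjusted p. H19 had 8.86, 8.97 and 9.04 in rescued si-CTL and 9.53, 9.69 and 9.59 in rescued si-Rsl24d1, and Mest had 7.20, 7.11 and 7.15 and then 7.36, 7.41 and 7.40.

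Doxycycline with ectopic Rsl24d1 in si-CTL cells shows how far the controls themselves moved. At day 0 none of 36 was called by limma, against 0% of all tested genes, and 19 had an unadjusted p below 0.05, against 41%. The median was -0.15, beside -0.12 over all tested genes. At day 4 only Snhg14 was called, against 0.0547%. Snhg14, the noncoding host of snoRNAs that runs antisense to Ube3a, had 5.52, 5.80 and 5.92 without and 7.41, 6.03 and 7.59 with rescue, a difference of 1.26. Its call was lost without rescued replicate 1 or 3, and without unrescued replicate 1 or 2. One day 0 si-Rsl24d1 library also stood apart for Snhg14, at 7.19 against 6.27 and 6.34. Peg10 differed by 0.66, Ube3a by 0.63, Zdbf2 by 0.59 and Peg3 by 0.57 between rescued and unrescued si-CTL cells at day 4, all past the adjusted p. These controls are the same libraries that enter the day 4 siRNA comparison, so these values and those of that comparison are not independent. With the length trend removed 19 of 36 differences in these controls were positive, with a median of 0.04.

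The siRNA effect differed between the days for 10 of 36 genes, all with a more positive effect at day 4, against 2.9% of all tested genes with a higher and 2.71% with a lower effect at day 4. The median interaction was 0.54, beside 0.14 over all tested genes. Plagl1 had the largest, 1.91 (SE 0.17), followed by Dlk1 at 1.15, Igf2 at 1.11, Phlda2 at 1.09 and Mest at 1.07. Phlda2 was lower in si-Rsl24d1 cells at day 0, with 6.35, 6.33 and 6.27 against 6.92, 7.01 and 7.02, and higher at day 4, with 5.83, 5.65 and 5.50 against 5.29, 5.16 and 5.28. Grb10, an adaptor of insulin receptor signalling, had 3.95, 3.65 and 3.58 in si-CTL and 3.69, 3.70 and 3.53 in si-Rsl24d1 at day 0, and 3.16, 3.19 and 3.30 and then 3.64, 4.29 and 4.09 at day 4, an interaction of 0.88. Sgce at -0.74, Magel2 at -0.58 and Ndn at -0.49 went the other way, past the adjusted p and under the fold threshold. With median of ratios scaling 6 genes were called with a positive interaction, against 1.71% of all tested genes, and 1 with a negative one, against 3.5%. With the length trend removed 5 were called with a positive one (Plagl1, Phlda2, Mest, Dlk1 and Igf2), against 1.64% of all tested genes, and Sgce with a negative one of -0.94, against 3.43%, while Magel2 was at -0.78 and Ndn at -0.66. The interaction of siRNA and rescue at day 0 gave no call in limma, against 0.128%, with 6 of the 36 at an unadjusted p below 0.05, against 17.6% of all tested genes.

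The factors that keep imprints were read from a list of 14 genes, all tested. At day 0 none was called in si-Rsl24d1 against si-CTL by limma, but 10 had an adjusted p below 0.01, 9 lower and 1 higher, against 30.4% of all tested genes, with a median of -0.31 beside -0.01 over all tested genes. Zfp57 had 7.76, 7.82 and 7.82 in si-CTL and 7.10, 7.13 and 7.09 in si-Rsl24d1, a difference of -0.69. Uhrf1, the partner of DNMT1 at hemimethylated DNA, differed by -0.58 and Ehmt2, a histone methyltransferase, by -0.51, while Dnmt1 differed by -0.11 and Dnmt3a by 0.52. At day 4 none was called by limma, and 11 had an unadjusted p below 0.05, against 53.1% of all tested genes. Of the 14, 13 had a positive difference, with a median of 0.25 beside 0.13 over all tested genes. At any fold 7 passed the adjusted p as higher, against 24.9%, and 1 as lower. These factors were not read with the length trend removed or against rescued si-CTL. Zfp57 had 7.23, 7.26 and 7.26 in si-CTL and 7.35, 7.20 and 7.31 in si-Rsl24d1. With RA in si-CTL cells 7 of the 14 fell, against 8.24% of all tested genes, among them Dnmt3a by 1.93, Dnmt3l by 1.13, Uhrf1 by 1.12 and Trim28 by 1.03. Dppa3, which protects methylation in the early embryo, rose by 2.05 and was the only 1 of the 14 that rose, against 6.77%. Fewer fell elsewhere. In si-Rsl24d1 cells 1 of the 14 rose and 1 fell, against 7.93% and 6.22%. In rescued si-CTL cells 1 rose and 2 fell, against 10.7% and 4.82%. In rescued si-Rsl24d1 cells 1 rose and 1 fell, against 9.34% and 5.57%.

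A second list of 47 other imprinted genes, 33 of them tested, was read in the same way. None of the 33 was called at day 4 by limma, against 1.45% of all tested genes higher and 0.182% lower. An unadjusted p below 0.05 in limma was found for 18, against 53.1%. At any fold 8 passed the adjusted p as higher, against 24.9%, and 2 as lower. Of the 33, 27 had a positive difference, and the median was 0.16 beside 0.13 over all tested genes. At day 0 Begain, of the Dlk1-Meg3 region, was called at 1.17, as 1 of 33 against 3.4% called higher. With RA in si-CTL cells Zfp264 rose by 2.08 and Copg2 by 0.94, against 6.77% of all tested genes. Calcr alone fell, by 0.90, against 8.24%. The difference between the 2 lists was not tested.

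Markers of other cell types moved with the day 4 difference. Of 18 extraembryonic endoderm markers 12 were tested, and 6 were called higher in si-Rsl24d1 cells at day 4, against 1.45% of all tested genes. Among the 6 were Lama1 at 1.12, Col4a1 at 1.10, Cubn at 1.09 and Gata6 at 0.99. The median of the 12 was 0.84, beside 0.13 over all tested genes. The summed level of the 18 was 433.7 to 481.4 TPM in si-CTL and 636.5 to 783.8 TPM in si-Rsl24d1 without rescue, and 490.8 to 524.6 TPM and 564.4 to 576.3 TPM with rescue. Afp and Ttr of the same list lay below the mean needed for a test. Afp did not exceed 0.37 log2(TPM + 1) in any library. Ttr was listed at 0 in every day 0 library and did not exceed 0.99 at day 4. Of 8 fibroblast markers 3 of 7 tested were called higher, Col3a1 at 2.05, Col1a1 at 1.45 and Postn at 1.31, and their sum was 123.3 to 134.2 TPM in si-CTL and 227 to 301.8 TPM in si-Rsl24d1. Of the mesoderm markers 2 of 8 were called higher, Twist1 at 1.51 and Hand1 at 1.13. Of the trophoblast markers Hand1, which is on both lists, was the only one of 8 called, and Prl3d1 stayed below 0.1 log2(TPM + 1). Of 6 tested neural markers Nes was called, at 1.17. None of 10 pluripotency markers was called at day 4 by limma, with 6 at an unadjusted p below 0.05, against 53.1% of all tested genes. The marker differences were not read under median of ratios scaling, with the length trend removed or against rescued si-CTL. The part of these cell types in the values of the imprinted genes was not tested.

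The label of the day 4 cells as differentiated was read against the same lists. With RA in si-CTL cells 6 of 12 tested extraembryonic endoderm markers rose. Among the 10 pluripotency markers Pou5f1 fell by 1.10 and Dppa5a rose by 1.03, and the other 8 were not called. The median of the 10 was -0.59, beside -0.10 over all tested genes. Of 6 tested neural markers 2, Tubb3 and Map2, fell by 1.99 and 1.18. Of 7 tested fibroblast markers 3 rose and 1 fell. Of 8 tested mesoderm markers none rose and 2 fell, and of 8 tested trophoblast markers 2 rose and none fell. Of all tested genes 6.77% rose and 8.24% fell.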

How the data were processed

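Groups were read from the titles. The authors quantified reads with Salmon and deposited log2(TPM + 1) for each gene symbol in 1 table, in which TPM sum to 1000000 per library. The submitters' processing notes name STAR 2.7.8a, Salmon 1.4.0 and a human build, whereas the paper's methods give mouse GRCm38 and other versions. The sources also differ on the kit, the medium, the time after transfection and the presence of LIF in RA. TPM hold no library size, so depth is unknown and no count test was run. Every column was mapped to a library.

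Genes with a mean of at least 0.5 were fitted with limma 3.58.1 in R 4.3.3 (8 group means, empirical Bayes with a trend, all 24 libraries, two-sided, Benjamini-Hochberg over all tested genes of each of 14 comparisons), and called where the adjusted p was below 0.01 and the fold above 1.8. Folds are on the log2(TPM + 1) scale and understate changes of low genes. The script was tested on simulated data. Exact permutation of 3 against 3 has 0.1 as its smallest p and was not used.

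The members, the other lists, and the comparisons were chosen with earlier results of these data known. Per-library values are given for Rsl24d1, for genes called between the siRNAs without rescue or in the interaction with the day, and for the 8 largest called changes with RA in si-CTL cells. From other lists at most 4 genes per direction are named. Values given outside this rule were chosen after they were seen. Alternatives were an offset of 0.1 or 2 in place of 1, a filter at 1.5 or none, only the groups compared, a replicate block, median of ratios scaling, no fold threshold and each replicate left out. Removing a lowess trend of each library against the longest annotated transcript, and rescued si-CTL as control, were added after seeing the data. Libraries with the same replicate number did not deviate together on average, which cannot decide whether they are paired. No 2 libraries were identical. Coordinates are gencode vM21 on GRCm38.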

Additional observations from a re-analysis of the deposited data

Results flagged for a closer look

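Among the imprinted genes 10 were set apart because the effect of si-Rsl24d1 without rescue differed between day 4 and day 0 in a test of the interaction itself (limma, adjusted p below 0.01 and over 1.8-fold). The interactions, as the effect at day 4 minus that at day 0 on the log2 scale, were 1.91 for Plagl1, 1.15 for Dlk1, 1.11 for Igf2, 1.09 for Phlda2, 1.07 for Mest, 1.03 for Zdbf2, 0.92 for H19, 0.92 for Sfmbt2, 0.90 for Peg10 and 0.88 for Grb10. All 10 were positive, while 2.9% of all tested genes were called with a higher and 2.71% with a lower effect at day 4. With median of ratios scaling 6 genes were called with a positive interaction, against 1.71% of all tested genes. With the length trend removed 5 of the 10 kept their call (Plagl1, Phlda2, Mest, Dlk1 and Igf2), against 1.64%. Sgce was then called with a negative interaction, against 3.43%. For Dlk1, Phlda2 and Mest the effect at day 0 was negative and past the adjusted p, and that at day 4 positive and past it. Groups of 3 libraries are too small for the outlier criterion used for larger groups, so no library was singled out by it.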

How the results depend on the processing

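No called difference of a single gene changed direction under any alternative run. The counts of called genes moved by more than 1.5 times in these cases. For si-Rsl24d1 against si-CTL at day 0 the count of 1 became 3 with 0.1 and 0 with 2 added to the TPM, 10 without a fold threshold and 4 with rescued si-CTL as control. At day 4 the count of 9 became 5 with median of ratios scaling, 26 without a fold threshold, 3 with the length trend removed and 1 with rescued si-CTL as control. With rescue on both sides it became 5 at day 0 without a fold threshold, and at day 4 it became 2 with 0.1, 0 with 2 added to the TPM and 8 without a fold threshold. For rescued against unrescued si-Rsl24d1 it became 9 at day 0 and 7 at day 4 without a fold threshold, and 0 at day 4 with only the groups compared. For rescued against unrescued si-CTL at day 4 it became 0 without a filter, with only the groups compared or with the length trend removed, and 8 without a fold threshold. Without a fold threshold the RA counts became 28 in si-CTL, 27 in si-Rsl24d1, 31 in rescued si-CTL and 30 in rescued si-Rsl24d1. The interaction of siRNA and day became 24 without a fold threshold and 6 with the length trend removed. The share of all tested genes without a fold threshold was read only for the siRNA comparisons without rescue. The RA, rescue and interaction counts without that threshold therefore have no background and are not read as a trait of imprinted genes. The cause was not tested, beyond what dropping the fold threshold or fitting fewer libraries itself does.

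When single libraries were left out there were 1 to 2 calls for the siRNA at day 0, 6 to 12 at day 4, 0 to 1 at day 4 with rescue on both sides, 1 to 1 for rescued against unrescued si-Rsl24d1 at day 4, 0 to 1 for rescued si-CTL at day 4 and 7 to 13 for the interaction with the day. With RA the range was 14 to 16 for si-CTL, 13 to 15 for si-Rsl24d1, 14 to 16 for si-CTL under rescue and 12 to 13 for si-Rsl24d1 under rescue. Elsewhere it was 0 to 0. Libraries with the same replicate number did not deviate together on average. Their mean residual correlation was -0.0173 in 84 pairs, from -0.223 to 0.169, beside 0.00865 in 168 pairs whose numbers differ. The residuals were centered within each group, which ties these means to each other. They therefore cannot decide whether the numbers pair samples. With a replicate block the count at day 4 was 9, and all 79 calls of single genes were kept. TPM hold no depth, so no counting error could be given.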
